A study of Homo sapiens with 6 samples.

Results

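Mismatch repair removes base mismatches and small loops that DNA polymerases leave behind, and the proteins that do it also act in DNA damage signalling. A MutS heterodimer finds the error, a MutL heterodimer is recruited and nicks the new strand, and an exonuclease, a clamp, its loader, a polymerase and a ligase replace the stretch. MSH6 and MSH3 are the alternative MutS subunits, and PMS2, PMS1 and MLH3 the alternative MutL subunits. The 5 genes described here are these subunits. They were taken by name from 22411 genes that have a feature with 1 symbol, with the brightest feature of each symbol. Each had 1 feature, and no other feature held the same values. The common partners of the MutS and of the MutL subunits are not analysed here.

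The study measured total RNA of H460 cells, a non-small cell lung cancer line, on the GeneChip Human Transcriptome Array 2.0, which has probe groups for coding and noncoding transcripts. It compared 3 arrays of cells that received no radiation (control) with 3 arrays of cells that received 7 Gy (irradiated), and the titles call the replicates biological. No other agent or allele is named for either group. The labels do not say when the RNA was taken after irradiation, and all arrays are from 1 cell line. Values are log2 signals, so a difference of 1 is a doubling. The difference is always irradiated minus control. The number of arrays limits the precision, and depth does not apply. In such bulk RNA, fewer cells of a cell cycle phase and less RNA per cell cannot be told apart.

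As a check of the treatment, the p53 targets MDM2 and CDKN1A were higher in irradiated cells, by 2.06 (SE 0.06) and 0.77 (SE 0.08). Of the epithelial markers, the keratin genes KRT8, KRT18 and KRT19 were bright, with group means of 9.93 to 10.86. EPCAM, another epithelial marker, had means of 4.04 in both groups, close to the median of 3.74 of the 23 background controls. The blood cell marker PTPRC lay under that median, at 2.86 and 2.90. Of 6 epithelial, 8 fibroblast and 7 blood markers measured, limma called 0 in each list. Without adjustment, 3, 1 and 2 of them had p under 0.05, and a trended variance called 0, 0 and 1. Markers of other cells were not all dim: CD68 had means of 8.92 and 9.20 and COL1A1 of 6.47 and 6.46.

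MSH6, which in MutS alpha finds base mismatches and short loops, fell after irradiation. Its log2 signal was 7.30, 7.29 and 7.35 on the control arrays and 6.72, 6.84 and 6.90 on the irradiated arrays. All 3 irradiated values lay under all 3 control values, with a gap of 0.39 between the groups, and the irradiated arrays were spread more widely than the controls. The means were 7.31 ± 0.03 and 6.82 ± 0.09 (SD, n = 3 each). The difference was -0.49 (SE 0.06, 95% confidence interval -0.62 to -0.35, limma adjusted p = 0.00455), which leaves 71.3% of the control signal. Among 17154 protein-coding genes, 257 had a more negative difference.

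MSH3, which in MutS beta finds larger insertion and deletion loops, was not called. Log2 signals of MSH3 lay between 6.47 and 6.54 on the control arrays and were 6.42, 6.47 and 6.52 on the irradiated arrays. The groups overlapped through the highest irradiated array, and the other irradiated arrays lay under the lowest control array. The difference was -0.03 (SE 0.05, 95% confidence interval -0.15 to 0.08, limma adjusted p = 0.775). A fall of the size seen for MSH6 lay outside that interval.

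PMS1, the MutL beta subunit, whose part in repair in human cells is less clear than that of PMS2, also fell. On the log2 scale it had 4.73, 4.72 and 4.79 on the control arrays and 4.50, 4.49 and 4.46 on the irradiated arrays. The groups did not overlap, and the irradiated arrays lay close together. The PMS1 feature lay above the median of 3.74 of the background controls on every array, but it was dim. Its irradiated values lay under 4.68, the median of the mean signals of all transcript clusters. The difference was -0.26 (SE 0.04, 95% confidence interval -0.36 to -0.16, limma adjusted p = 0.0185), which leaves 83.5% of the control signal. Leaving out 1 array ended this call for any array but irradiated 1: the adjusted p was 0.0605 to 0.0744 in those 5 fits and 0.0481 without irradiated 1, while the difference stayed between -0.27 and -0.24.

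PMS2, the MutL alpha subunit that carries the nicking activity of the main repair reaction, was not called. Its log2 signal was 7.30, 7.31 and 7.34 on the control arrays and 7.30, 7.37 and 7.40 on the irradiated arrays. The difference was 0.04 (SE 0.05, 95% confidence interval -0.07 to 0.15, limma adjusted p = 0.679). It was the only positive difference among the 5 genes, and its groups overlapped.

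MLH3, the MutL gamma subunit, known for crossovers in meiosis, was not called either. Its log2 signal was 5.52, 5.51 and 5.52 on the control arrays and 5.32, 5.49 and 5.50 on the irradiated arrays. The control values were almost equal, and 1 irradiated array lay far under the other irradiated arrays. The groups were apart by 0.01 only. The difference was -0.08 (SE 0.06, 95% confidence interval -0.22 to 0.06, limma adjusted p = 0.532), and -0.02 without irradiated 1.

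**Figure D1:**
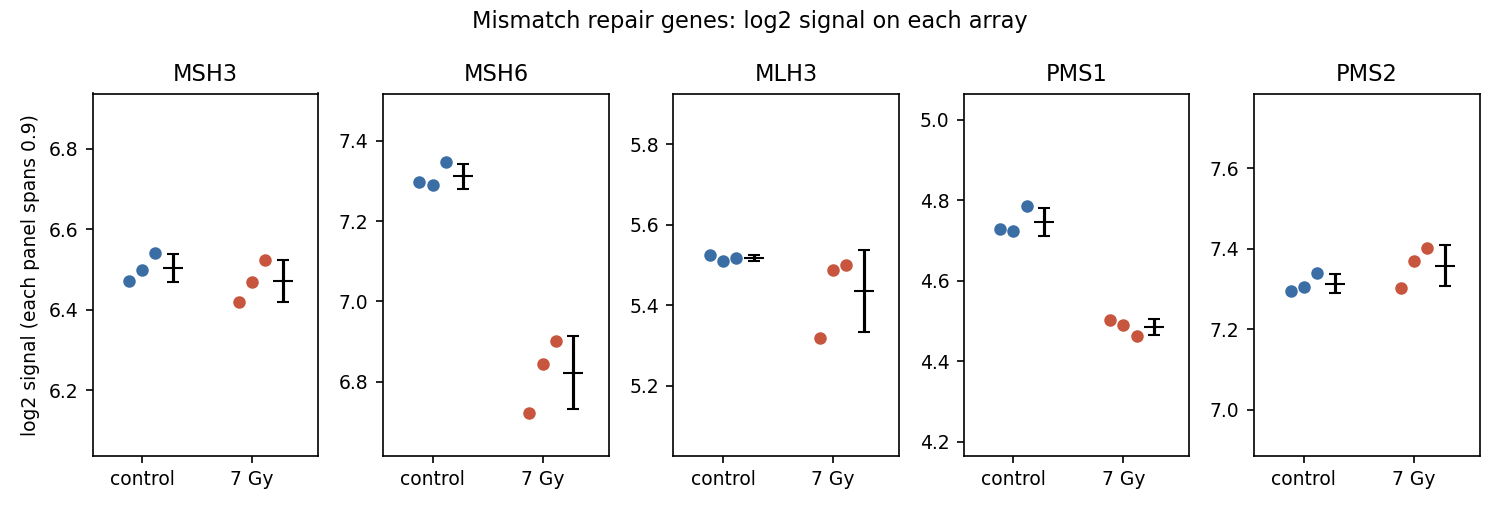
Log2 signal of MSH3, MSH6, MLH3, PMS1 and PMS2 on each of the 3 control (blue) and 3 irradiated (7 Gy, red) arrays, with the mean and SD of each group as black bars; each panel spans the same height. The irradiated arrays lie under the controls for MSH6 (means of 6.82 against 7.31) and PMS1 (4.49 against 4.74), while the groups overlap for MSH3 and PMS2 and nearly touch for MLH3.

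In all, 2 of the 5 genes were lower and 3 were not called. The background share called was 5.05% of 67528 transcript clusters (probe groups of 1 locus) in either direction. That share includes features as dim as the background controls. With features not above the background median left out, 4161 of 44925 transcript clusters were called. Over protein-coding genes, with 1 feature each, 6.83% were lower and 4.4% higher, and these shares include dim features too. Groups that did not overlap were common, at 39.5% of the protein-coding genes, against 3 of these 5. The median difference of the 5 genes was -0.08, against 0.01 over the protein-coding genes and 0.03 over all transcript clusters. With 5 genes, the count says little beyond the values of each.

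**Figure D2:**
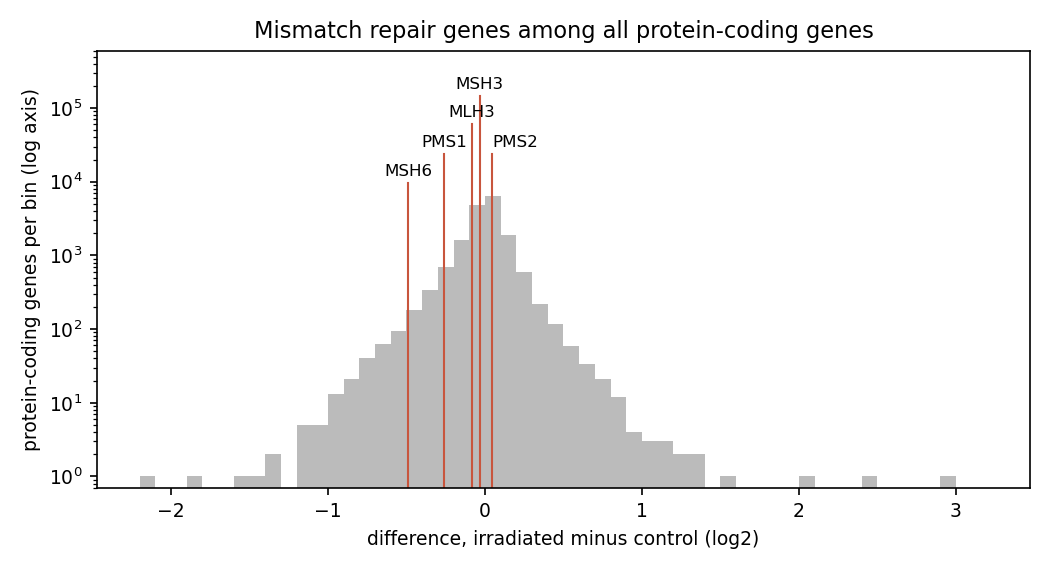
Number of protein-coding genes by their difference, irradiated minus control (log2), in bins 0.1 wide on a log axis, with the 5 mismatch repair genes as red lines. MSH6 at -0.49 lies in the lower tail, with 257 of 17154 genes under it, PMS1 at -0.26 has 997 genes under it, and MLH3, MSH3 and PMS2 lie in the centre.

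Signals of different features cannot be ranked against each other on an array, so only their changes were compared within arrays. Whether different features respond alike to the same change of RNA was not tested. The log2 ratio of MSH6 to MSH3, the subunits that compete for the common MutS partner, was lower by 0.45 in irradiated cells. Relative to PMS2, the change of MSH6 was -0.53 and that of PMS1 was -0.30. The ratios of the control arrays and of the irradiated arrays did not overlap for 9 of the 10 pairs of the 5 genes, these 3 among them. The same held for MSH3 and PMS2, both uncalled, with a change of only -0.08, so it does not set these 3 pairs apart. Over all 10 pairs of the 5 genes, 9 gave a two-sided exact permutation p = 0.10, the smallest that 3 against 3 arrays allow, and 0.111 adjusted over the 10 pairs, so no pair could pass at 0.05. The remaining pair, MSH3 and MLH3, gave an exact p = 0.50, with a change of 0.05 between them.

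Most genes of the later steps fell. Of 16 listed genes measured, 11 fell and 5 were not called, with a median difference of -0.44. Against 6.83% of protein-coding genes that fell, this list has 68.8%. It is a list of DNA replication genes as much as of repair genes. Whether the share in it differs from that among the 5 subunit genes was not tested.

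EXO1, the exonuclease that removes the strand with the error, had the largest difference of the list. Log2 signals of EXO1 were 9.29, 9.22 and 9.28 on the control arrays and 8.28, 8.33 and 8.36 on the irradiated arrays. The groups were far apart, with a difference of -0.94 (SE 0.05, limma adjusted p = 2.51e-04), which leaves 52.1% of the control signal. HMGB1, a chromatin protein that stimulates excision in reconstituted human mismatch repair, fell by 0.49 (SE 0.04, limma adjusted p = 0.00174).

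The clamp loader RFC, which places the sliding clamp PCNA on DNA, had called and uncalled subunits. Its 4 small subunit genes fell, RFC4 by 0.89, RFC3 by 0.59, RFC5 by 0.56 and RFC2 by 0.53 on the log2 scale. RFC4 was the clearest, with 7.01, 6.88 and 6.90 on the control arrays and none above 6.10 on the irradiated arrays. RFC1, the large subunit, was not called (-0.06, SE 0.05, limma adjusted p = 0.607), and its groups overlapped. PCNA itself, which binds MSH6 and MSH3 and directs the MutL nick, was not called at -0.11 (SE 0.05, limma adjusted p = 0.351). PCNA is also a known p53 target, and whether p53 had a part in its value here was not tested.

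Of the subunits of RPA, which covers the single-stranded gap, RPA1 fell by 0.56 (SE 0.05) and RPA2 by 0.39 (SE 0.06), while RPA3 was not called at -0.07 (SE 0.05). RPA2 lost its call without control 1 (limma adjusted p = 0.0556). Of DNA polymerase delta, which fills the gap, POLD3 fell by 0.48 (SE 0.05) on the log2 scale. The catalytic subunit gene POLD1 fell by 0.21 (SE 0.04) and POLD2 by 0.23 (SE 0.04), and both were uncalled in each of the 6 fits without 1 array, with a limma adjusted p of 0.0685 to 0.149. POLD4, the smallest subunit, had a positive difference of 0.17 (SE 0.05) that was not called (limma adjusted p = 0.112). LIG1, the ligase that seals the strand, was not called at 0.03 (SE 0.04), and its control and irradiated arrays lay between 7.56 and 7.61.

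Of 7 genes of meiotic MutS homologs and accessory proteins, MCM8 fell and 6 were not called, which is 1 of 7 against 6.83% of protein-coding genes. MCM8 forms a helicase with MCM9 that has been linked to mismatch repair. It fell from 7.16, 7.13 and 7.25 on the control arrays to 6.30, 6.36 and 6.33 on the irradiated arrays, a difference of -0.85 (SE 0.05, limma adjusted p = 4.00e-04). MCM9 was not called at -0.17 (SE 0.05, limma adjusted p = 0.120), and its groups did not overlap. MSH5, a meiotic MutS homolog, had -0.22 (SE 0.05, limma adjusted p = 0.0565) and was called in 3 alternative fits. The identifier of the only feature named MSH5 places it on an alternative haplotype of chromosome 6. MSH4, the partner of MSH5, had means of 2.59 and 2.62, under the median of the background controls. SETD2, the histone methyltransferase whose mark recruits MSH6 to chromatin, was not called at 0.08 (SE 0.05), and its groups were apart by 0.00755. FAN1, a nuclease that binds MutL proteins, and MUTYH, a glycosylase that binds MutS alpha, had differences of 0.01 and -0.03 and were not called.

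**Figure D3:**
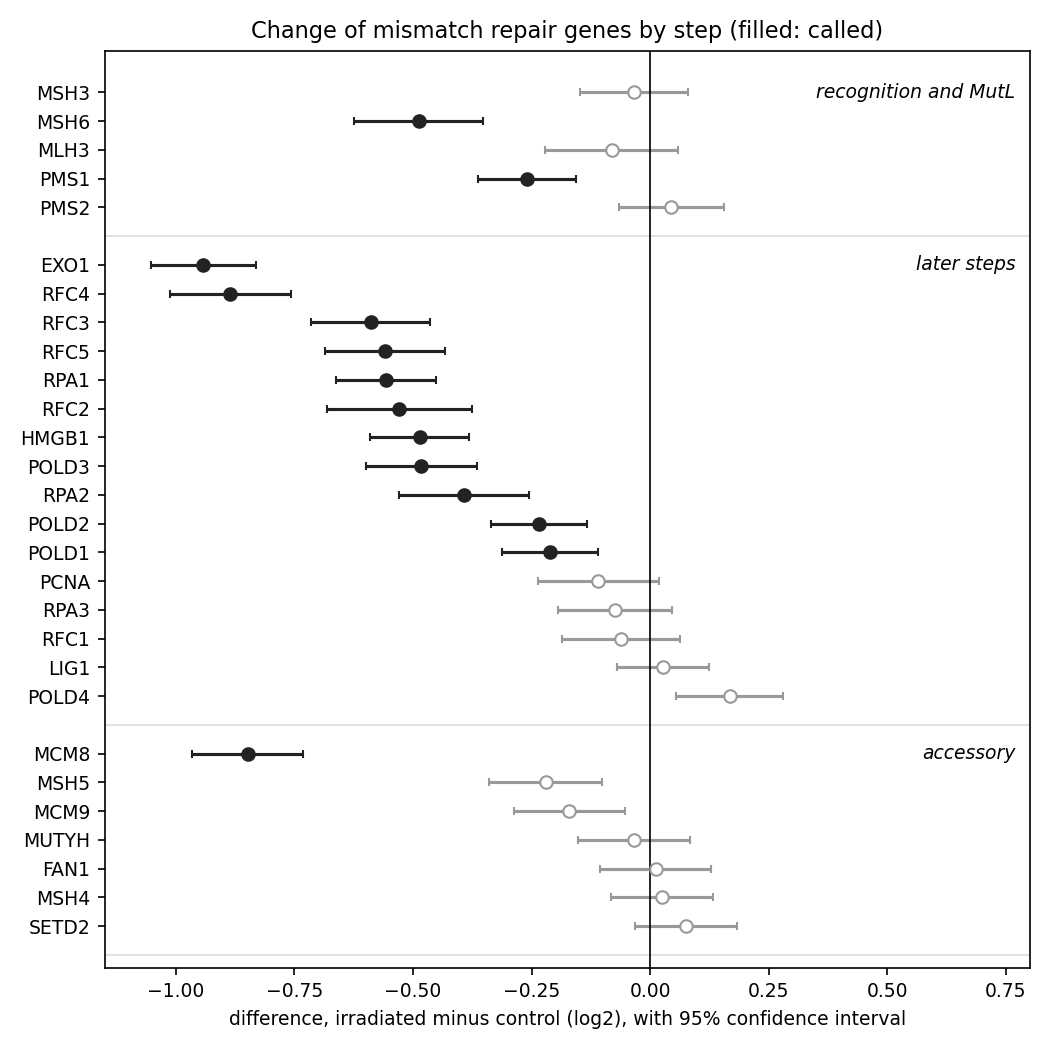
Difference, irradiated minus control (log2), with its 95% confidence interval from the limma fit, for the 5 subunit genes, the 16 genes of later steps and the 7 meiotic and accessory genes. Filled points are called at an adjusted p under 0.05: MSH6 and PMS1, 11 of the 16 later-step genes from EXO1 (-0.94) to POLD1 (-0.21), and MCM8 (-0.85).

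Genes of the G1/S transition and of S phase fell almost throughout, beside the falls of MSH6 and PMS1. Of 32 measured members of that marker list, which leaves out the genes described above, 31 fell, against 6.83% of protein-coding genes, with a median difference of -0.67 and a range from -1.57 to -0.17. RRM2, a subunit of ribonucleotide reductase, fell by 1.57 on the log2 scale. The helicase subunit gene MCM6 fell by 1.49 and the cyclin gene CCNE2 by 1.18. The irradiated mean of CCNE2, 3.77, lay close to the median of 3.74 of the background controls. The mean log2 signal over the list was 7.25 to 7.33 on the control arrays and 6.53 to 6.58 on the irradiated arrays, so the groups did not overlap. MSH6 at -0.49 and PMS1 at -0.26 were within the range of differences of this list, but both fell less than its median. PMS1 lay near the weak end of the range, and the gene at -0.17 was not called. MSH3, MLH3 and PMS2 lay above the highest value of the list. The part of cell cycle phase in the changes of MSH6 and PMS1 was not tested.

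By root mean square distance between log2 profiles centred on their mean over the 6 arrays, the genes most like MSH6 were POLA2, a subunit of DNA polymerase alpha, BLM, a RecQ helicase, and ANAPC5, a subunit of the anaphase-promoting complex. The search covered 15863 genes whose mean signal was at or above the median of all transcript clusters. The distances to MSH6 were 0.0137, 0.0161 and 0.0165, and the differences of the 3 genes were -0.50, -0.49 and -0.50. The genes most like PMS1 were SPART, LPCAT4 and SEPHS1, with distances of 0.0121, 0.0138 and 0.0152 and differences of -0.25, -0.25 and -0.26. Each of these 6 genes was picked for a matching size of change, so the match of the differences is no separate result.

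The genes that lie next to the subunit genes were compared with them, since some share the stretch before their start. Of 10 neighbouring protein-coding genes in the reference table, 6 had a feature with their own symbol. ORMDL1, which regulates sphingolipid synthesis, starts 110 bases from PMS1 on the other strand. Its log2 signal was 6.08, 6.10 and 6.16 on the control arrays and 5.98, 6.13 and 6.07 on the irradiated arrays. Its groups overlapped, with a difference of -0.06 (SE 0.06, limma adjusted p = 0.652), beside -0.26 for PMS1.

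FBXO11, a subunit of a ubiquitin ligase, runs toward MSH6 from the other strand and overlaps its end. It had a difference of 0.05 (SE 0.04, limma adjusted p = 0.618), and all its irradiated values lay slightly above the control values, opposite in sign to MSH6. ACYP1, an acylphosphatase gene that ends 1775 bases before the start of MLH3 on the same strand, fell strongly. ACYP1 had log2 signals of 6.22, 6.18 and 6.07 on the control arrays and 5.37, 5.40 and 5.50 on the irradiated arrays, with a difference of -0.74 (SE 0.06, limma adjusted p = 0.00111). The MLH3 feature next to it was not called. EIF2B2, on the other side of MLH3, had a difference of 0.12 (SE 0.05, limma adjusted p = 0.258). The neighbours AKAP19 and RASGRF2 had means of 3.47 to 3.82, close to the background median, with differences of 0.05 and 0.09, and were not called.

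**Figure D4:**
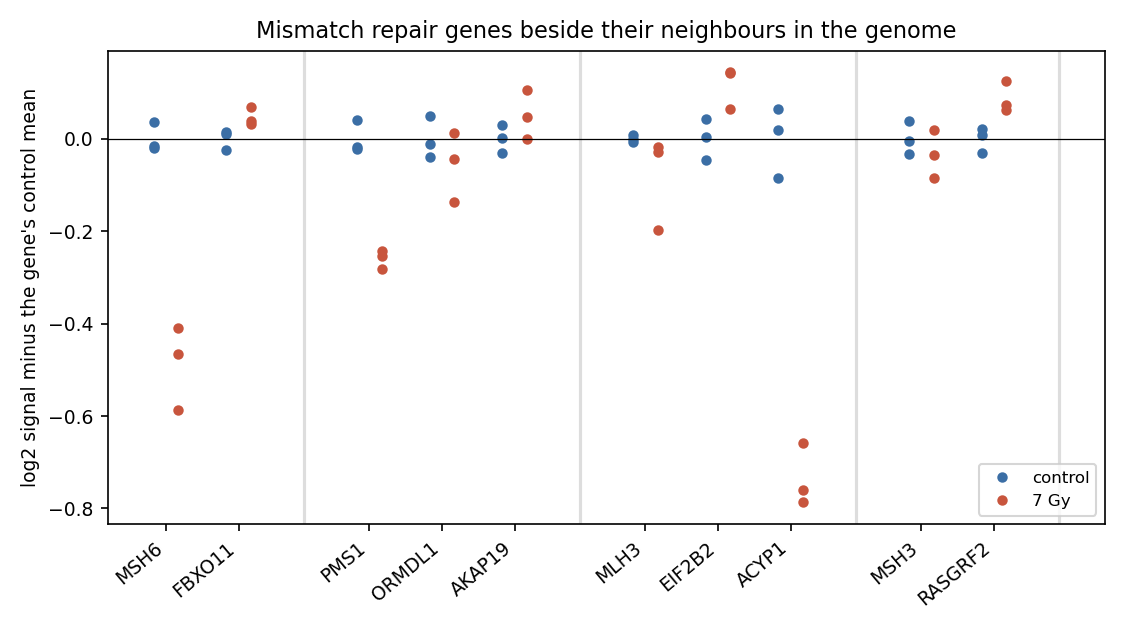
Log2 signal of each array minus the gene's mean over the control arrays, for 4 mismatch repair genes and the neighbouring genes that have a feature of their own symbol; blue points are the 3 control arrays and red points the 3 irradiated (7 Gy) arrays. MSH6 and PMS1 fell while FBXO11 and ORMDL1 beside them were not called, and ACYP1 fell by 0.74 beside MLH3.

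The bases before the start of the genes that fell are shown so that their letters can be set beside each other. They are from RefSeq (GRCh38.p14), and capitals mark the letters searched on both strands. These were TTTCCCGC, TTTGGCGC, TTTCGCGC or TTTGCCGC for an E2F-type site, TTTGAA for a cell cycle homology region, GGGCGG for the GC box, and the letters CCAAT for the box of that name. The MSH6 stretch, chr2:47782895-47783144 on the plus strand, ends at the base before the start. The PMS1 stretch, chr2:189784340-189784449 on the plus strand, is all that lies between the starts of ORMDL1 and PMS1.
MSH6: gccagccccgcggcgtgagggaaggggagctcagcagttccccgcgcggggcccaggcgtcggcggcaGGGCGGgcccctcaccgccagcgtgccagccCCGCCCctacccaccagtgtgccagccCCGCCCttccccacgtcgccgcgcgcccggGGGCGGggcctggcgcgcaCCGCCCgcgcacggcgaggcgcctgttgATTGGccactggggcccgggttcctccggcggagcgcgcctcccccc
PMS1: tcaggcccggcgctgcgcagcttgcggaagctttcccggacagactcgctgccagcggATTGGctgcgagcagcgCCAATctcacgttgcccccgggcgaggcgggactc

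In windows from 250 bases before to 50 after the start, the MSH6 promoter held 5 GC boxes, 1 CCAAT box and 1 E2F-type site. The E2F-type site of MSH6, at 4 to 11 counted from the start, lies after the start and outside the stretch shown above. The PMS1 window held 1 GC box and 2 CCAAT boxes and no E2F-type site. That GC box, at -178 to -173 from the PMS1 start, lies past the start of ORMDL1 and outside the stretch shown above. The E2F-type letters were also present in MSH3 and PMS2, which were not called, and were in neither PMS1 nor MLH3. They are shown with the bases around them, 30 in all, with the E2F-type letters in capitals; in MSH3, 2 matches, 1 on each strand, overlap. The MSH6 stretch is chr2:47783137-47783166 (plus strand), the MSH3 stretch chr5:80654536-80654565 (plus strand) and the PMS2 stretch chr7:6009131-6009160 (minus strand).
MSH6: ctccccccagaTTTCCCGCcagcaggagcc
MSH3: gcggtcaagTTTGGCGCGAAAttgtggccg
PMS2: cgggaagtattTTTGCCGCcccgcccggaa

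The E2F-type letters occurred in 4.44% of 15843 promoters of protein-coding genes (1 promoter per gene, the same window length), the CCAAT box in 36.4%, the GC box in 58.5% and the cell cycle homology letters in 12.1%. The cell cycle homology letters were in none of the 5 windows. In the PMS2 stretch the E2F-type letters overlap a GC box. Of the 3 genes with the E2F-type letters, MSH6 fell and MSH3 and PMS2 were not called, and of the 2 without them, PMS1 fell and MLH3 was not called.

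PMS2 has many pseudogene copies on its chromosome, whose transcripts can resemble it so closely that probes may read both. Features of 6 such loci had their own symbol. PMS2P3 had 8.12, 8.08 and 8.08 on the control arrays and 8.09, 8.13 and 8.14 on the irradiated arrays. PMS2P5 had 7.79, 7.87 and 7.84 against 7.91, 8.02 and 8.01, and PMS2P2 had 7.76, 7.79 and 7.76 against 7.83, 7.89 and 7.89. In PMS2P5 and PMS2P2 all irradiated values lay above the controls, with differences of 0.14 (SE 0.05, limma adjusted p = 0.182) and 0.10 (SE 0.04, limma adjusted p = 0.304).

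Of the 6 loci, limma called 0 (1 had p under 0.05 without adjustment, and a trended variance called 0), and the differences ran from -0.07 to 0.14, close to the 0.04 of PMS2. As the copies share sequence with PMS2, the signal of each feature may hold RNA of the others, and the value of PMS2 is uncertain to that extent. The overlap of their probes was not tested.

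**Figure D5:**
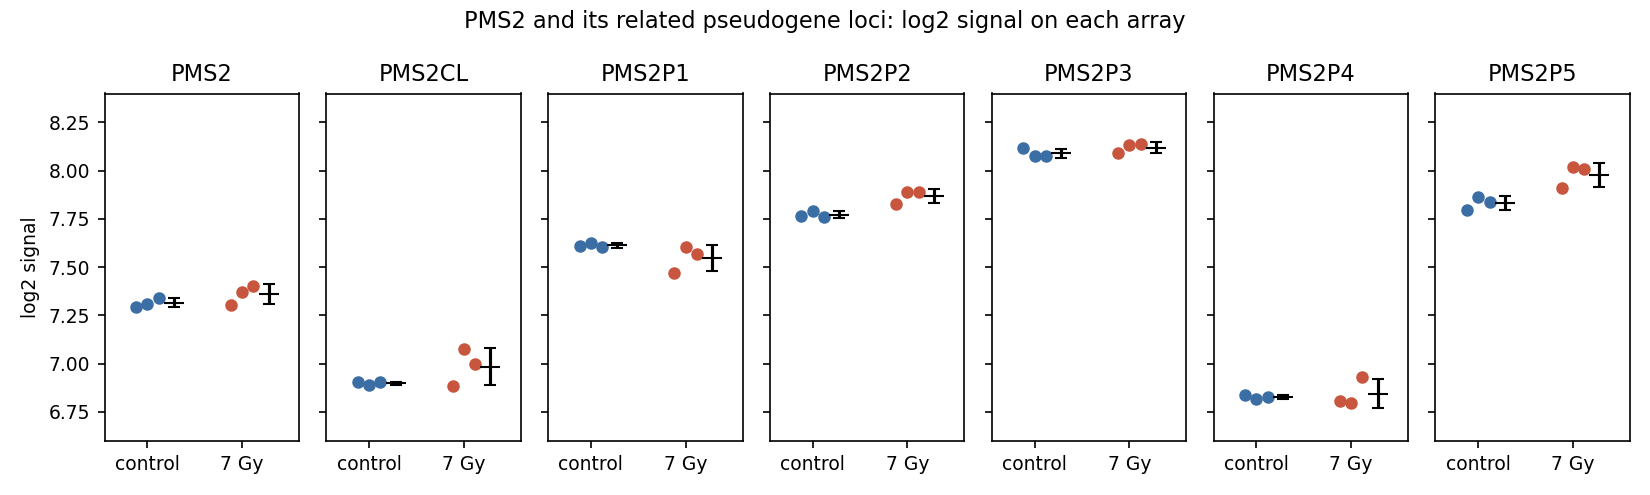
Log2 signal of PMS2 and of the 6 related pseudogene loci with a feature of their own symbol on each of the 3 control (blue) and 3 irradiated (7 Gy, red) arrays, with the mean and SD of each group as black bars. All lie between 6.79 and 8.14, and no locus shows the fall seen in MSH6.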

How the data were processed

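Total RNA of H460 cells was extracted with TRIzol and hybridised to 6 arrays, 3 control and 3 irradiated. The values used are log2 gene-level signals as deposited; per the labels they are an RMA full signal, and the submitters' processing notes name MAS5, so the summary method is not settled. The software version and annotation build are not stated, and no detection calls were used. Of 70523 features, the 67528 whose identifiers mark transcript clusters entered a two-sided limma fit (version 3.58.1, R 4.3.3, lmFit and eBayes, group as the only term), with Benjamini-Hochberg adjustment over all of them, and called at an adjusted p under 0.05. The fit was tested on simulated data. Array medians lay between 4.65 and 4.70. Platform symbols were updated through a RefSeq table (GRCh38.p14), and a feature with more than 1 symbol got no name.

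The members, the gene lists and the naming rule were chosen with earlier results of these data known. The rule named all 5 members and their features, the 3 brightest PMS2 copies, the nearest coding gene on each side, the called and the 2 brightest uncalled genes of both pathway lists, the 3 largest S phase changes, the 3 nearest profiles, CDKN1A and MDM2. RFC1, RPA3, LIG1, MCM9, MSH4, FAN1, MUTYH and the cell type markers named were chosen after their values were seen. A search for protein motifs was planned and not run, as no protein sequences were used here.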

Additional observations from a re-analysis of the deposited data

How the results depend on the processing

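MSH6 kept its direction and its call in all 13 alternatives, which were a trended variance, quantile normalization, array median subtraction, dim features left out, all features in the fit, the median of a symbol's features, the replicate block and 6 fits without 1 array (difference -0.53 to -0.44, limma adjusted p up to 0.0271). MSH3, MLH3 and PMS2 kept their sign and stayed uncalled in the same 13. PMS1 was called in the 6 alternatives with all arrays and no block, and the count of called mismatch repair genes stayed at 2 there. Without 1 array that count was 1 to 2 and the PMS1 difference -0.27 to -0.24. The number of transcript clusters called was 1559 to 2379 without 1 array, against 3411, in fits with fewer arrays. The later-step count was 8 to 9 without 1 array, against 11.

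The titles number the replicates and do not say whether arrays of the same number were paired. Deviations from the group means of same-numbered arrays had correlations of -0.01, -0.07 and -0.04. Those of differently numbered arrays ran from -0.07 to 0.11. Such values cannot decide whether the arrays were paired. With the replicate block, 1598 transcript clusters and 1 mismatch repair gene were called, and PMS1 (-0.26) had a limma adjusted p of 0.0897. POLD1 and POLD2 lost their calls with it too (limma adjusted p = 0.117 and 0.0960), and it left 9 of the 16 later-step genes and 28 of the 32 S phase genes called, against 11 and 31. The accessory count was 2 in place of 1 with a trended variance, with the array median subtracted and with dim features left out, where MSH5 was called too; its cause was not tested. Subtracting the array median moved the split of calls from 1517 higher and 1894 lower to 1164 and 2024, and kept the calls of the 5 genes. Changes of sign were seen in uncalled genes near 0: MSH4 at -0.032 with quantile normalization, and FAN1 at -0.0058 with the median subtracted and from -0.014 to 0.050 without 1 array.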
